A study of Danio rerio with 20 samples.

Results

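MicroRNA levels of whole sapje-like zebrafish were compared with those of wild type SLW zebrafish at 30 days post fertilisation (dpf), with 3 samples on each side out of 20 samples in the series. The members were chosen by sample title and age, and all mature zebrafish microRNA probes of the array were taken, of which 167 were bright enough to be tested and 52 were not. The sapje-like samples were replicates 1, 2 and 3 and the wild type SLW samples replicates 2, 5 and 8, SLW being the name the labels give to the wild type fish of this cohort. All fish were of the TL strain and on a shrimp diet, and the labels give 10 fish per cohort without saying whether each sample was a separate pool, so the errors and p-values measure the spread between samples, which may be technical. A second dystrophin-mutant line, sapje, with its own wild type SW at 30 dpf (3 samples each), and the 2 sapje-like and 2 wild type SLW samples at 5 dpf serve below for the tests of a difference between cohorts or ages and for values set beside the sapje-like ones. All 20 samples entered the normalization and the fit, so the spread behind each test is estimated over all groups of the series.

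Sapje-like fish carry a mutation of the dmd gene, which encodes dystrophin, the protein that ties actin inside the muscle fibre to the matrix around it. The line is a model of Duchenne muscular dystrophy, in which fibres are torn, inflamed and lost. The labels name the genotype only as sapje-like, and a microRNA array holds no measurement of dmd with which to check it. MicroRNAs are short RNAs that guide Argonaute proteins to messenger RNAs and lower their output. A microRNA finds its targets mainly through its seed, bases 2 to 8 from its 5′ end, so that members of one seed family largely share predicted targets. Several microRNAs are restricted to a tissue, such as miR-1, miR-133, miR-206 and miR-499 in striated muscle, miR-122 in liver cells and miR-192 and miR-194 in gut and liver epithelium. Because RNA came from whole fish, fewer cells of a type and less of a microRNA per cell cannot be told apart.

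The sequences shown here are those of microRNAs that share a seed, as the deposited files list them. The seed is in capitals and the rest in lower case, 5′ to 3′. All members of the miR-27 family, of the pair miR-148 and miR-152 and of the pair miR-99 and miR-100 lay below wild type SLW. They hold members that passed and are shown so that the families can be seen as sequences. Other seed families also lay wholly below wild type SLW. In that of miR-17a, miR-20a, miR-20b and miR-93, 4 of 4 lay lower with a median of -1.01, and none passed.
miR-27a: uUCACAGUggcuaaguuccgcu
miR-27b: uUCACAGUggcuaaguucugca
miR-27c: uUCACAGUgguuaaguucugc
miR-27d: uUCACAGUggcuaaguucuuca
miR-27e: uUCACAGUggcuaaguucagug
miR-148: uCAGUGCAuuacagaacuuugu
miR-152: uCAGUGCAugacagaacuuugg
miR-99: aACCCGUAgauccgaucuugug
miR-100: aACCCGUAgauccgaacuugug

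miR-122, miR-192, miR-739 and miR-146b had means well above that of wild type SLW and 4 different seeds, though single wild type values came close to or reached the mutants for all but miR-739. miR-146a is given for its seed shared with miR-146b. miR-15b and miR-16b share a seed and are shown because they lay on opposite sides of wild type SLW.
miR-122: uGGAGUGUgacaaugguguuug
miR-192: aUGACCUAugaauugacagcc
miR-739: aGGCCGAAguggagaaggguu
miR-146b: uGAGAACUgaauuccaagggug
miR-146a: uGAGAACUgaauuccauagaugg
miR-15b: uAGCAGCAcaucaugguuugua
miR-16b: uAGCAGCAcguaaauauuggag

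Each sample was one dye channel of a 2-colour array. Sapje-like replicates 1 and 3 and wild type SLW replicate 5 were stained with Cy3, and sapje-like replicate 2 and wild type SLW replicates 2 and 8 with Cy5, so dye and genotype were not balanced and the fit carries a term for the dye. Spot patterns placed sapje-like replicates 1, 2 and 3 on arrays with wild type SLW replicates 2, 5 and 8 in that order. In sapje-like replicates 2 and 3, 139 and 105 probes were above background, against 173 and 150 in wild type SLW replicates 5 and 8, and sapje-like replicate 1 and wild type SLW replicate 2 lay between and had equal numbers. Levels below are normalised log2 intensities of one probe and are compared between samples, not between probes. Differences are sapje-like minus wild type SLW on the log2 scale with the standard error of the limma fit (n = 3 each). That error uses a spread estimated over all 8 groups, so it can differ from the spread of the 6 samples compared. Adjusted p-values are two-sided and corrected over all 167 probes. Differences on single arrays carry no dye term, nor do folds with dim values raised to the background level.

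Wild type SLW replicate 8 stood apart from the other wild type samples. Over all tested probes it correlated at 0.958, 0.952 and 0.882 with sapje-like replicates 1, 2 and 3, and at 0.840 and 0.872 with wild type SLW replicates 2 and 5, which correlated with each other at 0.981. Sapje-like replicates correlated with one another at 0.981, 0.923 and 0.942. Gut and liver microRNAs (miR-122, miR-192, miR-194a and miR-194b) averaged 12.16, 11.85 and 11.59 in the sapje-like samples, and 7.17, 7.26 and 11.85 in wild type SLW replicates 2, 5 and 8. Striated muscle microRNAs (miR-1, miR-133a, miR-133b, miR-133c, miR-206 and miR-499) averaged 11.42, 11.48 and 10.95 in the sapje-like samples, and 12.63, 12.42 and 10.96 in wild type SLW. On both lists replicate 8 lay among or beside the mutants. Its label says wild type, it was kept as such, and the probes that passed, and most other probes described, are given with it and without it. Replicate 8 was singled out after its values were seen. Leaving out the wild type sample most like the mutants favours larger differences and more calls. Values, counts and adjusted p-values without it therefore describe how far the results rest on 1 sample, and are not a separate test.

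With all samples, 15 of 167 probes passed an adjusted p of 0.05 in limma (8.98%), of which 6 (3.59%) were higher and 9 (5.39%) lower in sapje-like fish. The 6 that rose were miR-122, miR-739, miR-146b, miR-145, miR-184 and miR-92a. The 9 that fell were miR-152, miR-499, miR-15b, miR-27a, miR-27b, miR-27c, miR-148, miR-199 and miR-100. For each of the 15 the 2 groups did not overlap, which held for 42 of all tested probes (25.1%), 10 of them higher (5.99%) and 32 lower (19.2%). The median difference was -0.03 over all tested probes and 0.41 in absolute size, while the 15 lay between 0.66 and 4.81 in size. Of all 167 tested probes, 77 lay above and 90 below wild type SLW. Counts of list or family members given below are to be read against these shares.

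**Figure D1:**
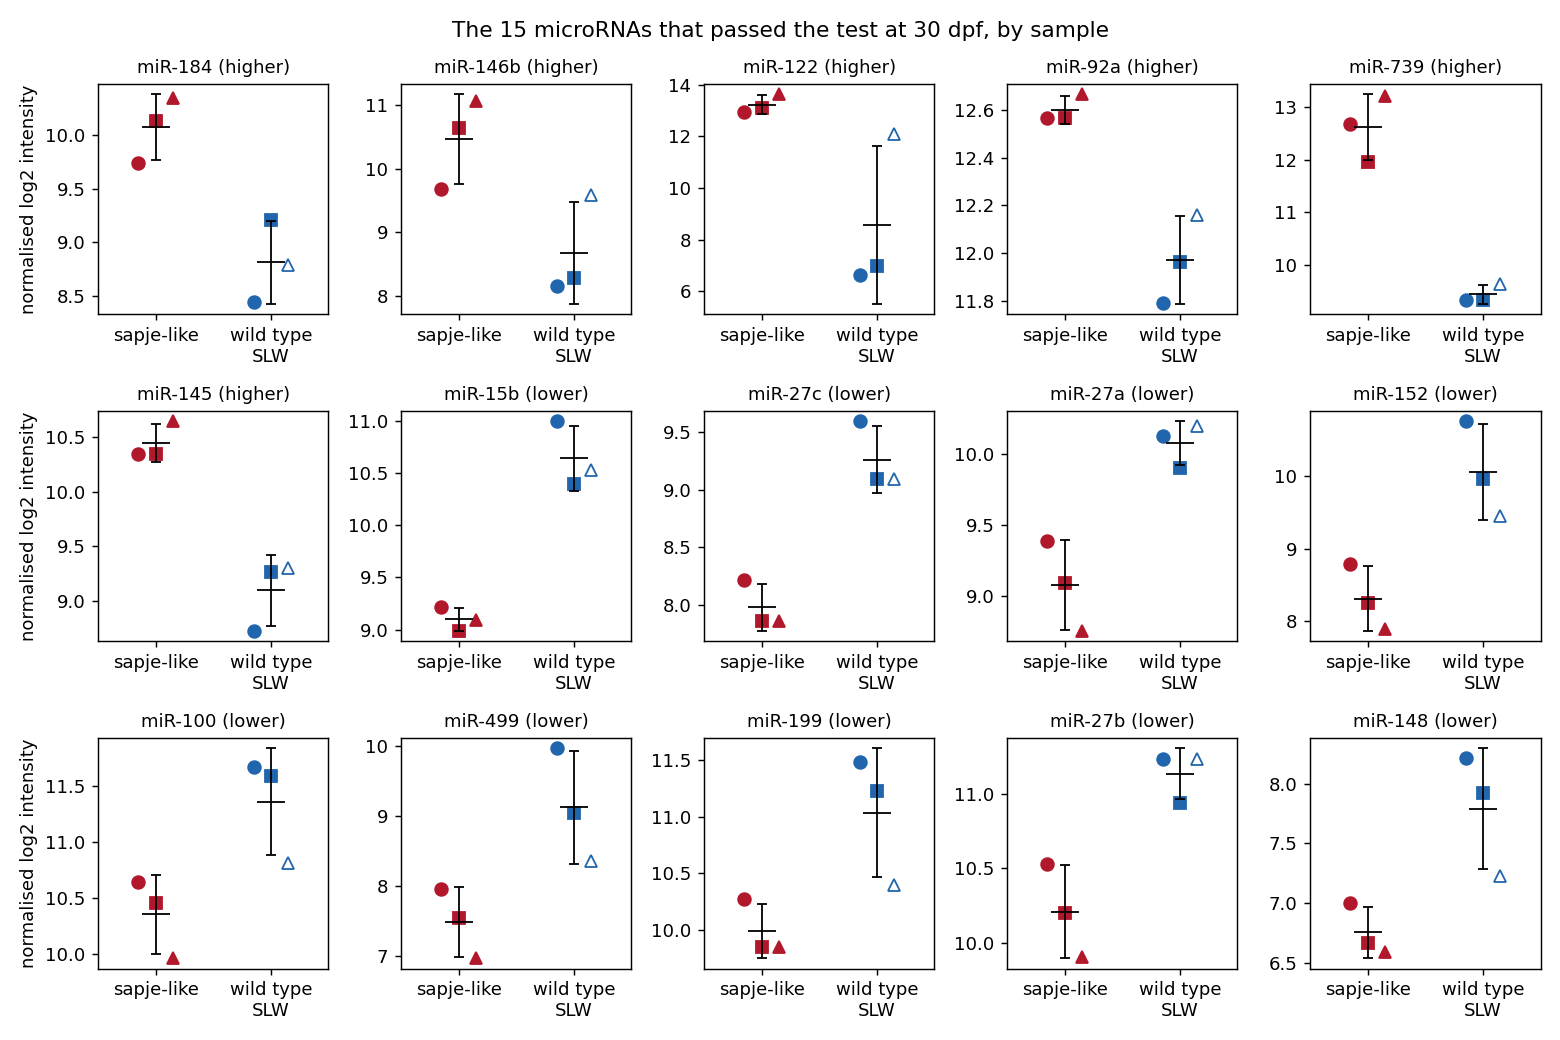
Normalised log2 intensity (vertical axis) of the probes that passed, one panel each, with sapje-like samples (red) left and wild type SLW samples (blue) right, a point for each sample, bars for the mean and SD, and an open triangle for wild type SLW replicate 8. In every panel the groups are apart, and in the miR-122 panel wild type SLW replicate 8 (12.09) lies near the mutants (12.94 to 13.64) and far from replicates 2 and 5 (6.64 and 6.97).

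The count depended on single samples, on the scaling and on which samples entered the fit. Fitted on the 30 dpf samples alone, 2 probes passed (miR-739 and miR-15b), and on the 6 samples compared alone 1 passed (miR-739), with 41 and 24 at an unadjusted p under 0.05. With the inferred array as a random block 24 passed, 8 higher and 16 lower, all 15 above among them. Without wild type SLW replicate 8, 34 probes passed (20.4%), 15 higher (8.98%) and 19 lower (11.4%), and all 15 above were among them. With sapje-like replicate 2 or wild type SLW replicate 2 left out, 0 probes passed in limma, with 39 and 31 at an unadjusted p under 0.05. Without sapje-like replicate 3 only miR-15b passed, and without wild type SLW replicate 5 miR-15b, miR-27a, miR-27c and miR-184 passed. Without sapje replicate 3, wild type SW replicate 3 or sapje-like replicate 1, 13, 12 and 13 of the 15 still passed, miR-145 not among them. With cyclic loess in place of quantile normalization 0 probes passed (38 at an unadjusted p under 0.05, against 46, or 27.5%, with quantile normalization). The split of higher and lower calls was 2 and 10 with median scaling and 4 and 11 with quantile normalization within each age. Of the 15, 8 passed with median scaling, 13 with quantile normalization within each age and 10 in the authors' deposited table. miR-145, miR-92a, miR-100, miR-199 and miR-27b did not pass in that table, nor with the median of the empty spots subtracted as background. Over the 16 settings other than leaving out 1 sample, miR-145 passed in 8 and miR-92a in 9, against 14 for miR-15b. None of the 15 turned direction in any of these settings.

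miR-122, the dominant microRNA of liver cells, had the largest difference of the 167 probes with all samples. It stood at 12.94, 13.08 and 13.64 in sapje-like replicates 1, 2 and 3, against 6.64, 6.97 and 12.09 in wild type SLW replicates 2, 5 and 8. All mutants lay above all wild types, yet the wild type range spanned most of the distance, and 2 of 3 wild type samples had the probe above background. The difference was 4.81 ± 1.12 (28.1-fold, limma adjusted p = 0.0229), and without replicate 8 it was 6.44 (adjusted p = 7.04e-05). On the 3 arrays it was 6.30, 6.11 and 1.54. With values below the lowest probe above background set to that level, and without the dye term, miR-122 was 24.3-fold higher. The 2 folds therefore differ by the dye term as well as by that level. Since 1 library moves the difference and 1 wild type sample lay below background, its size is not exact. The standard error draws on all 8 groups, while the SD was 3.06 in the wild type SLW samples and 0.37 in the sapje-like samples. miR-122 did not pass with the 30 dpf samples alone or with the 6 samples compared alone.

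miR-192 and miR-194a, which mark gut and liver epithelium and whose genes neighbour each other in zebrafish, had the same sample pattern and did not pass with all samples. miR-192 read 14.65, 14.65 and 13.43 in sapje-like fish, against 7.75, 7.75 and 14.65 in wild type SLW, so that replicate 8 reached the highest mutant value. Equal values, for this and other probes, come from the normalization, which assigns levels by rank. The miR-192 difference was 4.31 ± 1.43 (adjusted p = 0.0657), and 6.46 without replicate 8 (adjusted p = 8.71e-05). miR-194a read 12.80, 12.22 and 11.73 in sapje-like fish, against 7.60, 7.66 and 12.57 in wild type SLW, a difference of 2.88 ± 1.16 (adjusted p = 0.139) and of 4.50 without replicate 8 (adjusted p = 0.00216). On the third array both were lower in the mutant, at -1.22 for miR-192 and -0.84 for miR-194a. The SD of the wild type SLW samples was 3.99 for miR-192 and 2.85 for miR-194a, while the standard errors draw on all 8 groups. All 4 gut and liver microRNAs tested lay above wild type, with 1 passing, and their median was 3.59, or 5.47 without replicate 8. In the other mutant line the list averaged 11.91, 9.57 and 9.16 in the sapje samples and 7.39, 7.17 and 7.20 in wild type SW.

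**Figure D2:**
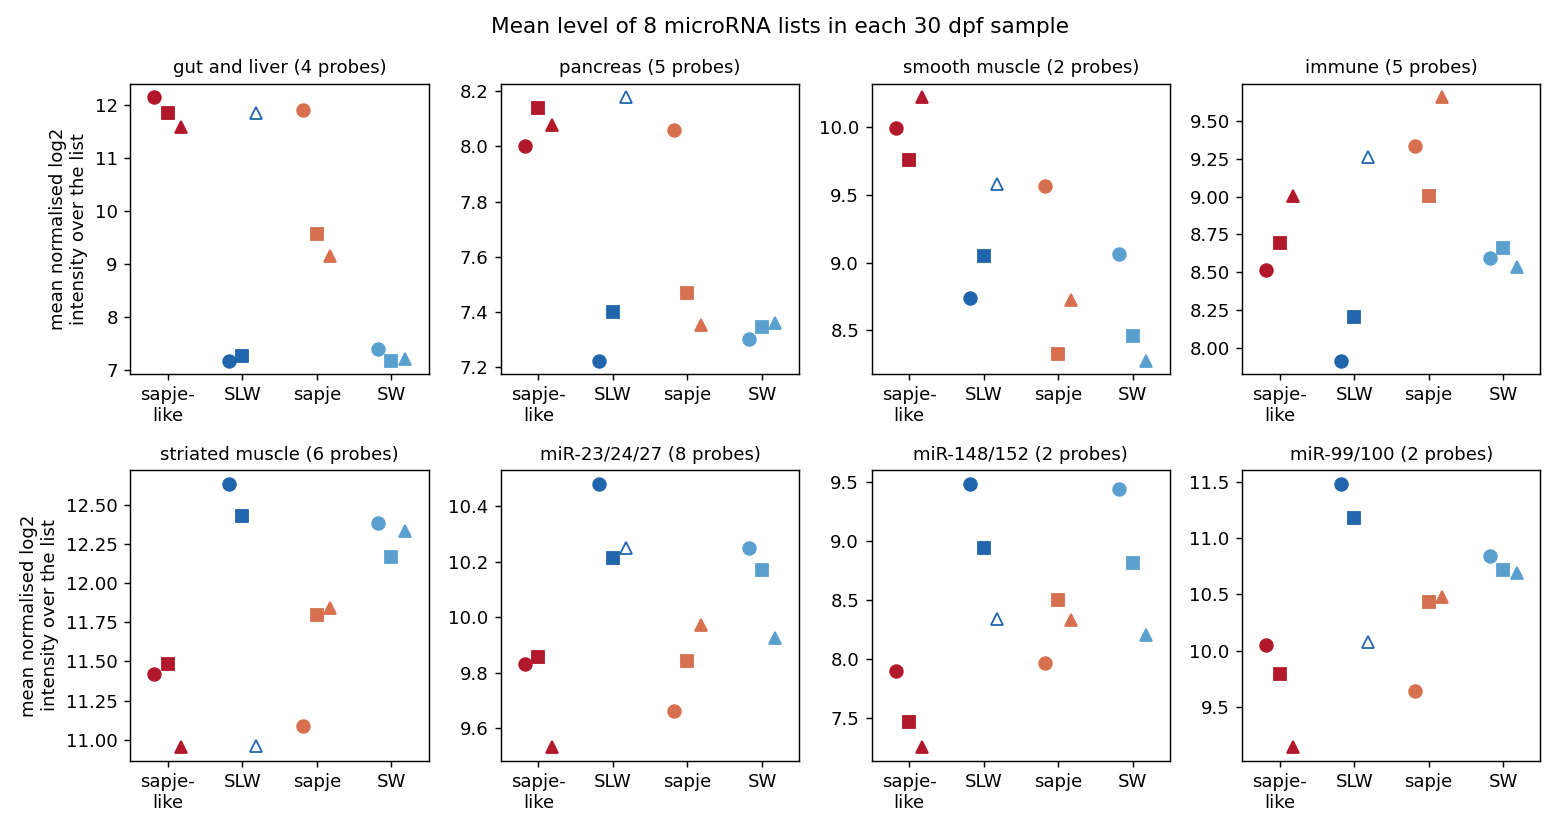
Mean normalised log2 intensity of tissue marker lists in each 30 dpf sample (horizontal axis: samples by group, each mutant left of its wild type, the open triangle being wild type SLW replicate 8). On the gut and liver list wild type SLW replicate 8 (11.85) lies with the sapje-like samples (11.59 to 12.16) and apart from replicates 2 and 5 (7.17 and 7.26), and on the striated muscle list it lies beside sapje-like replicate 3 (10.96 and 10.95).

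On the pancreas list replicate 8 lay above all mutants for miR-217 and among them for miR-375. miR-217, known from the exocrine pancreas in mammals, read 9.34, 9.27 and 9.34 in sapje-like fish, against 7.18, 7.29 and 9.80 in wild type SLW. It did not pass with all samples (1.19 ± 0.65, limma adjusted p = 0.266) and passed without replicate 8 (2.04, adjusted p = 0.0129). miR-375, a microRNA of pancreatic islets, read 10.13, 11.06 and 11.18 in sapje-like fish and 8.82, 9.59 and 10.34 in wild type SLW (1.31 ± 0.43, adjusted p = 0.0657, and 1.64 without replicate 8, adjusted p = 0.0216). The median of the 5 pancreas probes tested was 0.06. Whether the gut, liver and pancreas levels of a sample bear on its other microRNAs was not tested.

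The probe for miR-739, annotated in fish, rose by 3.36 ± 0.92 (10.3-fold, limma adjusted p = 0.0365). Its name matched no microRNA gene in RefSeq, and from which RNA its signal came was not tested. It read 12.67, 11.96 and 13.22 in sapje-like fish, against 9.34, 9.34 and 9.64 in wild type SLW. Here replicate 8 sat with the other wild types, the groups lay far apart, and the difference without it was also 3.36 (adjusted p = 0.0385). The arrays gave 3.33, 2.63 and 3.57. The call ended, with differences from 2.99 to 4.04, when sapje-like replicate 1, 2 or 3 was left out (adjusted p = 0.066, 0.0626 and 0.139) or wild type SLW replicate 2 or 5 (adjusted p = 0.12 and 0.104), and without wild type SW replicate 3 (3.41, adjusted p = 0.0506). The call also ended with cyclic loess, median scaling, quantile normalization within each age, or no filter on dim probes. In sapje against wild type SW miR-739 passed too (4.60 ± 0.92, adjusted p = 0.0216). miR-738, the other probe of that list, did not differ past the threshold (0.01 ± 0.38, adjusted p = 0.98).

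miR-146b, in mammals an inhibitor of innate immune signalling that is itself induced by it, rose by 1.80 ± 0.41 (3.49-fold, limma adjusted p = 0.0229). It read 9.68, 10.64 and 11.06 in sapje-like fish, against 8.15, 8.29 and 9.59 in wild type SLW. The highest wild type sample, replicate 8, reached to just below the lowest mutant, and without it the difference was 2.25 (adjusted p = 0.00216). miR-146a has the same seed and differs from miR-146b by an edit distance of 4, that is the number of bases changed, gained or lost. It read 9.04, 8.59 and 8.51 in sapje-like fish, against 8.04, 8.65 and 10.27 in wild type SLW, and did not pass (-0.34 ± 0.53, adjusted p = 0.708). Without replicate 8 its difference turned to 0.31 (adjusted p = 0.699). In the sapje cohort miR-146b passed (2.02 ± 0.41, adjusted p = 0.0216) and miR-146a stood at 1.66 ± 0.53 (adjusted p = 0.177). Of the 5 immune probes tested, miR-146b was the 1 that passed, against 8.98% of all tested probes. The median of the 5 was -0.01, or 0.46 without replicate 8.

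miR-145, a smooth muscle microRNA, rose by 1.34 ± 0.38 (2.53-fold, limma adjusted p = 0.0415). It read 10.34, 10.34 and 10.64 in sapje-like fish, against 8.73, 9.27 and 9.30 in wild type SLW, with no wild type sample within 1 log2 unit of a mutant. Without replicate 8 the difference was 1.45 (adjusted p = 0.0299). miR-143, its partner in smooth muscle, read 9.64, 9.17 and 9.80 in sapje-like fish and 8.75, 8.82 and 9.85 in wild type SLW, and did not pass (0.33 ± 0.36, adjusted p = 0.586). The smooth muscle list averaged 9.99, 9.76 and 10.22 in the mutants and 8.74, 9.05 and 9.58 in the wild types, replicate 8 again being the highest wild type. The miR-143 difference turned negative with median scaling.

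miR-184, known in mammals from lens and cornea, rose by 1.28 ± 0.28 (2.43-fold, limma adjusted p = 0.0229). It read 9.74, 10.13 and 10.34 in sapje-like fish, against 8.44, 9.21 and 8.79 in wild type SLW. Replicate 8 lay between the other wild types, and without it the difference was 1.27 (adjusted p = 0.0147). The other 3 sensory and lens probes tested did not pass, and the median of the 4 was 0.09.

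miR-92a, from the miR-17-92 cluster that in mice promotes cell growth and survival, had the smallest change that passed. It read 12.57, 12.57 and 12.67 in sapje-like fish, against 11.79, 11.96 and 12.16 in wild type SLW. The difference was 0.66 ± 0.17 (1.58-fold, limma adjusted p = 0.0299), and 0.74 without replicate 8 (adjusted p = 0.0147). Tested probes for other microRNAs whose genes neighbour miR-92a genes lay below wild type SLW, but by uneven amounts, and none passed. Differences were largest for miR-17a at -1.09 ± 0.44 (limma adjusted p = 0.135), miR-20a at -0.93 ± 0.37 (0.134) and miR-18a at -0.67 ± 0.30 (0.175). The other tested neighbours differed little. These were miR-18b (-0.14 ± 0.11), miR-19b (-0.06 ± 0.22), miR-17a* (-0.02 ± 0.15) and miR-20a* (-0.01 ± 0.12). With median scaling miR-17a*, miR-18b and miR-20a* turned to lie above wild type SLW. The miR-17-92 list of 13 probes also holds relatives whose genes do not neighbour miR-92a genes, such as miR-18c, miR-20b and miR-93. On that list miR-92a was the 1 that passed, against 8.98% of all tested probes, and the median was -0.14. Within its own seed family miR-92b stood at 0.57 ± 0.33, miR-25 at 0.12 ± 0.27 and miR-363 at -0.35 ± 0.24, and without replicate 8 at 0.67, 0.15 and -0.35, and none of these passed either way.

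The miR-27 family, which in mice restrains fat cell formation and represses Pax3 in muscle progenitors, had 5 of 5 members below wild type, 3 of them past the threshold. Of all 167 tested probes, 90 lay below wild type and 5.39% passed as lower. miR-27c read 8.22, 7.86 and 7.86 in sapje-like fish, against 9.59, 9.09 and 9.09 in wild type SLW. The groups were apart by more than the range within either, and the difference was -1.31 ± 0.28 (2.49-fold lower, limma adjusted p = 0.0229).

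miR-27a read 9.39, 9.09 and 8.75 in sapje-like fish, against 10.13, 9.91 and 10.20 in wild type SLW, a difference of -1.06 ± 0.24 (adjusted p = 0.0229). miR-27b read 10.53, 10.20 and 9.91 in sapje-like fish, against 11.23, 10.94 and 11.23 in wild type SLW, a difference of -0.95 ± 0.25 (adjusted p = 0.0299). Replicate 8 had the same rank-assigned level as one of the other wild types for miR-27b and miR-27c and was the highest of the 3 for miR-27a. Without it the differences were -1.37 for miR-27c, -0.98 for miR-27a and -0.89 for miR-27b (adjusted p = 0.0129, 0.0232 and 0.0424). miR-27d did not pass (-0.66 ± 0.20, adjusted p = 0.0517) and did so without replicate 8 (-0.75, adjusted p = 0.0282), while miR-27e stood at -0.31 ± 0.21 (adjusted p = 0.365), or -0.44 without replicate 8. The 5 sequences printed above differ from one another by edit distances of 1 to 4, and miR-27b and miR-27d by 1, so signal on one probe cannot be assigned to one member with certainty.

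Genes of the miR-27 family neighbour those of miR-23 and miR-24, with which they are made as one transcript in other vertebrates. The probes for these did not pass. miR-23a read 12.16, 12.94 and 12.09 in sapje-like fish, against 12.49, 12.16 and 12.49 in wild type SLW (0.11 ± 0.25, limma adjusted p = 0.805), and the groups overlapped. miR-23b stood at 0.17 ± 0.25 (adjusted p = 0.69) and miR-24 at -0.62 ± 0.32 (adjusted p = 0.228). Without replicate 8 the values were 0.12 for miR-23a, 0.21 for miR-23b and -0.76 for miR-24, and none passed. The difference between miR-27 and miR-23 was itself not tested.

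**Figure D3:**
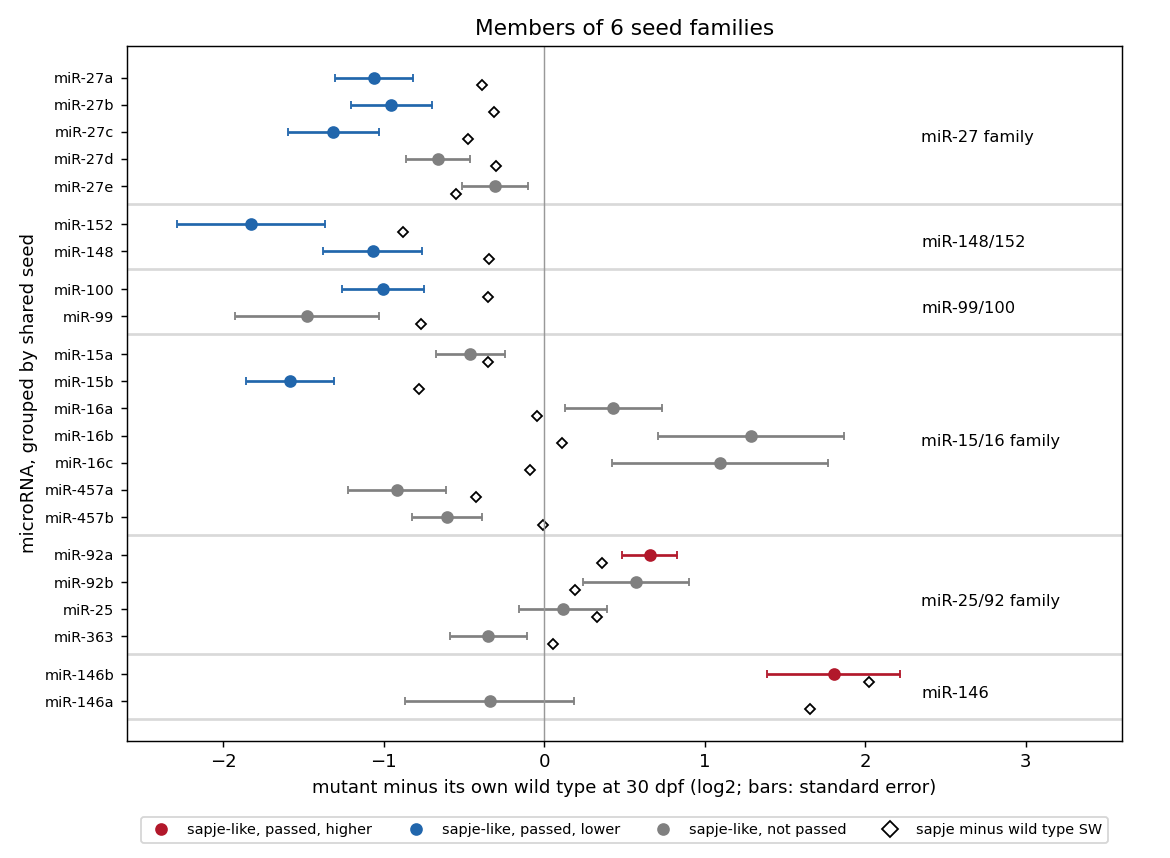
Difference from wild type (log2, horizontal axis) for the members of 6 seed families, with circles and standard error bars for sapje-like minus wild type SLW, coloured where they passed, and open diamonds for sapje minus wild type SW at 30 dpf. All 5 miR-27 members, both miR-148 and miR-152 and both miR-99 and miR-100 lie left of 0, whereas the miR-15/16 family lies on both sides. Families not drawn, such as that of miR-17a, miR-20a, miR-20b and miR-93, also lay wholly below wild type SLW.

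miR-148 and miR-152, which share a seed, both fell. In mammals they target the DNA methyltransferase DNMT1. miR-152 read 8.79, 8.25 and 7.90 in sapje-like fish, against 10.76, 9.96 and 9.45 in wild type SLW. Its difference of -1.83 ± 0.46 (3.55-fold lower, limma adjusted p = 0.0299) was the largest below wild type with all samples, and it was -2.09 without replicate 8 (adjusted p = 0.0129). miR-148 read 6.998, 6.67 and 6.59 in sapje-like fish, against 8.22, 7.93 and 7.23 in wild type SLW, and was above background in 1 of 3 mutants. It fell by 1.07 ± 0.31 (adjusted p = 0.0451). With values below the lowest probe above background set to that level, and without the dye term, it was 1.45-fold lower. The size is therefore not exact. The difference was -1.33 without replicate 8 (adjusted p = 0.0129). For both, replicate 8 was the wild type sample closest to the mutants. The 2 sequences differ by an edit distance of 2.

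miR-100 and miR-99, which in mammals target mTOR, differ by an edit distance of 1 and both lay lower. miR-100 read 10.64, 10.45 and 9.96 in sapje-like fish, against 11.68, 11.60 and 10.81 in wild type SLW, and passed (-1.01 ± 0.26, limma adjusted p = 0.0299). miR-99 read 9.45, 9.13 and 8.32 in sapje-like fish, against 11.29, 10.76 and 9.34 in wild type SLW, where replicate 8 lay among the mutants. It did not pass with all samples (-1.48 ± 0.45, adjusted p = 0.0517). Without replicate 8 the differences were -1.26 for miR-100 and -2.05 for miR-99 (adjusted p = 0.00341 and 0.00267). Genes beside miR-100 encode let-7a and miR-125b, which stood at 0.34 ± 0.39 and -0.32 ± 0.33 and did not pass.

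miR-15b had the smallest p of all probes. It belongs to the miR-15/16 family, which in human cells restrains the cell cycle and BCL2. It read 9.21, 8.99 and 9.09 in sapje-like fish, against 11.00, 10.40 and 10.53 in wild type SLW, so that both groups were tight and replicate 8 lay with its own. The difference was -1.58 ± 0.27 (3.00-fold lower, limma adjusted p = 0.00921), and -1.63 without replicate 8 (adjusted p = 0.00345). On the arrays it was -1.78, -1.41 and -1.43. The call ended when sapje-like replicate 2 was left out (-1.57, adjusted p = 0.0626), and likewise wild type SLW replicate 2 (-1.40, adjusted p = 0.0538).

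Its 6 tested seed relatives lay on both sides of wild type SLW, and none passed with all samples. miR-457a, whose gene lies beside that of miR-15b, read 8.44, 8.12 and 8.39 in sapje-like fish, against 9.55, 9.45 and 8.59 in wild type SLW (-0.92 ± 0.30, limma adjusted p = 0.0657, and -1.20 without replicate 8, adjusted p = 0.0147). miR-457a passed with the array as a random block (adjusted p = 0.0475). miR-15a and miR-457b stood at -0.46 ± 0.21 and -0.61 ± 0.22, and at -0.42 and -0.75 without replicate 8, where miR-457b passed (adjusted p = 0.0309). miR-16b lay on the other side, at 9.59, 9.96 and 12.39 in sapje-like fish, against 9.45, 9.39 and 9.27 in wild type SLW, where a single mutant, replicate 3, set the difference of 1.29 ± 0.58 (adjusted p = 0.175). miR-16c showed the same sample high, at 7.57, 7.75 and 10.70 in sapje-like fish and 7.66, 7.63 and 7.40 in wild type SLW (1.09 ± 0.67, adjusted p = 0.328). Without replicate 8 these were 1.23 and 1.02 and did not pass.

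miR-499, which in mice lies in an intron of a slow myosin heavy chain gene and acts in slow fibres, fell by 1.67 ± 0.43 (3.18-fold lower, limma adjusted p = 0.0299). It read 7.96, 7.53 and 6.97 in sapje-like fish, above background in 2 of 3, against 9.96, 9.04 and 8.35 in wild type SLW. With values below the lowest probe above background set to that level, and without the dye term, it was 2.52-fold lower. The size is therefore not exact. Replicate 8 was the lowest wild type, and without it the difference was -2.03 (adjusted p = 0.00908). It was the 1 striated muscle microRNA of 6 that passed, where 8.98% of all tested probes did. All 6 of 6 lay below wild type with a median of -0.55, as did 90 of all 167 tested probes. miR-1 read 13.64, 13.94 and 13.94 in sapje-like fish, against 14.65, 14.65 and 13.94 in wild type SLW (-0.59 ± 0.26, adjusted p = 0.167, and -0.81 without replicate 8, adjusted p = 0.0373). Without replicate 8 the median of the list was -1.10, with 2 of 6 passing. The count is 4 lower and 2 higher with cyclic loess, median scaling or the authors' deposited table, where miR-1 and miR-206 turned, and the median with cyclic loess was -0.10.

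In the miR-133 family, another group of striated muscle microRNAs, wild type SLW replicate 8 lay below the mutants. miR-133a read 12.09, 12.39 and 11.23 in sapje-like fish, against 13.08, 12.94 and 11.18 in wild type SLW, so that replicate 8 was the lowest of all 6 samples. Its difference was -0.47 ± 0.49 (limma adjusted p = 0.568) and -1.07 without replicate 8 (adjusted p = 0.0608). miR-206, a skeletal muscle microRNA, stood at -0.02 ± 0.29 (adjusted p = 0.967), or -0.21 without replicate 8.

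miR-199, in mice made with miR-214 from an antisense transcript of a dynamin gene and present in connective tissue, read 10.27, 9.85 and 9.85 in sapje-like fish, against 11.48, 11.23 and 10.40 in wild type SLW. It fell by 1.07 ± 0.28 (2.10-fold lower, limma adjusted p = 0.0299), and the difference without replicate 8, the lowest wild type, was -1.36 (adjusted p = 0.00341). Its star strand miR-199* stood at -0.79 ± 0.26 (adjusted p = 0.0657) and passed without replicate 8 (-0.95, adjusted p = 0.0287). miR-214, encoded beside it, read 13.43, 13.22 and 13.08 in sapje-like fish and 13.22, 13.22 and 12.94 in wild type SLW (0.11 ± 0.17, adjusted p = 0.705). On the list of injury-responsive microRNAs, which holds these 3, miR-199 was the 1 of 9 that passed, against 8.98% of all tested probes. The median of the list was -0.24, or 0.01 with cyclic loess. miR-21, known for its rise in injured and fibrotic tissue, read 14.30 in each sapje-like sample, against 13.64, 13.64 and 14.30 in wild type SLW. It did not pass (0.48 ± 0.19, adjusted p = 0.125) and passed without replicate 8 (0.67, adjusted p = 0.0147).

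The next probes by p did not pass with all samples, but passed with the array as a random block (adjusted p = 0.0319 to 0.0393). Beside miR-27d and miR-99, these were miR-26b (-0.72 ± 0.22, limma adjusted p = 0.0517), miR-9*, the star strand of a neural microRNA (-0.81 ± 0.25, 0.0539), and miR-181a, a lymphocyte regulator in mice (-0.90 ± 0.28, 0.0562). Without replicate 8 these 3 were -0.62, -0.83 and -1.08 (adjusted p = 0.0799, 0.0532 and 0.0232). Without replicate 8 another 9 probes passed as higher, miR-18c, miR-21, miR-192, miR-194a, miR-194b, miR-200c, miR-217, miR-375 and miR-459*. Another 10 passed as lower, miR-1, miR-27d, miR-30b, miR-99, miR-133a*, miR-181a, miR-199*, miR-455, miR-457a and miR-457b. miR-133a*, the star strand of a striated muscle microRNA, read 7.23, 7.18 and 7.23 in sapje-like fish, against 8.19, 7.86 and 7.16 in wild type SLW (-0.53 ± 0.23, adjusted p = 0.167, and -0.81 without replicate 8, adjusted p = 0.0129). Replicate 8 was the wild type sample nearest to the sapje-like mean for 10 of the 15 probes that passed and for 83 of all 167 (49.7%).

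**Figure D4:**
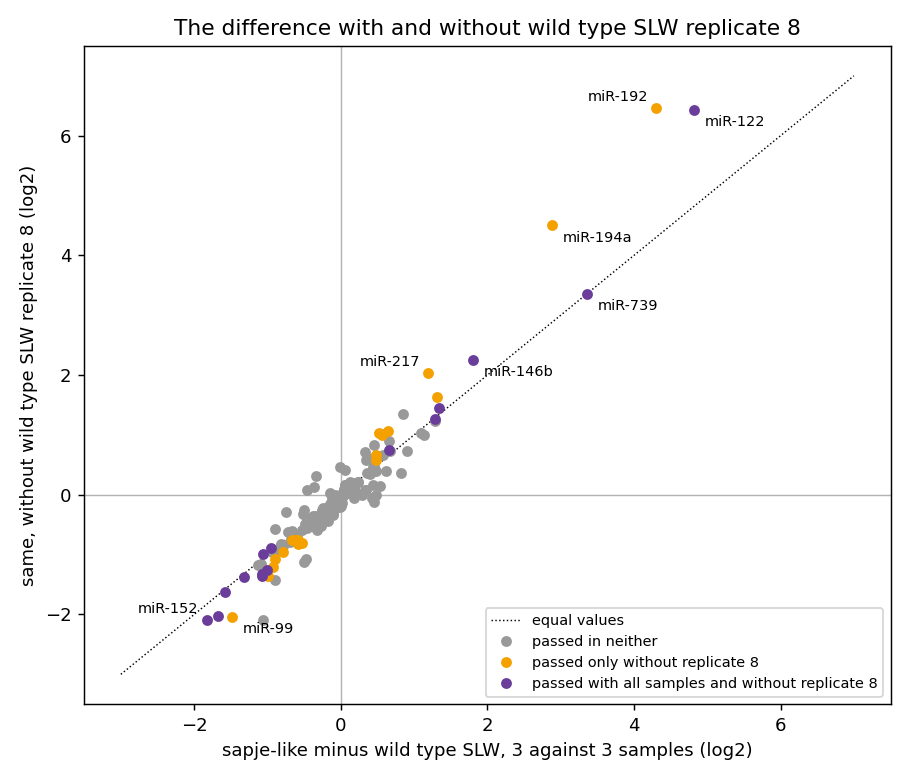
Difference of each of the 167 tested probes without wild type SLW replicate 8 (vertical axis, log2) against the difference with all 6 samples (horizontal axis, log2), with a dotted line of equal values. miR-122 (4.81 and 6.44) and miR-192 (4.31 and 6.46) lie far above the line, and miR-739 (3.36 in both) lies on it.

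The other lists gave few calls, and of all 167 tested probes 77 lay higher and 90 lower. All 10 let-7 probes, which mark differentiated tissue, lay above wild type with a median of 0.44 and none passing (let-7j turned in the authors' deposited table), and without replicate 8 it was 7 of 10 with a median of 0.08. In 7 Hox cluster probes (the miR-10 and miR-196 families and the star strand miR-10d*) 6 lay higher (7 with cyclic loess). The list median was 0.47, or 0.34 without replicate 8. In 7 nervous system probes 6 lay lower, with a median of -0.20, or -0.24 without replicate 8, but 5 lay lower with median scaling and 3 with cyclic loess. Of 6 miR-30 probes, the star strand miR-30e* among them, 5 lay lower, with a list median of -0.49, or -0.55 without replicate 8. The 5 that share the miR-30 seed all lay lower, with a median of -0.65, or -0.71 without replicate 8. In 8 epithelial probes (the miR-200, miR-203 and miR-205 families) the median was -0.34, or -0.07 without replicate 8. None passed with all samples, and miR-200c passed as higher without replicate 8. miR-451, the erythroid microRNA, read 9.24, 10.53 and 9.59 in sapje-like fish and 10.27, 11.10 and 10.45 in wild type SLW and did not pass. miR-126, of endothelium, stood at 0.03. The early embryo probes of the miR-430 family lay near the lowest levels in both groups, between 6.55 and 6.65 on average in sapje-like fish and between 6.50 and 6.57 in wild type SLW.

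miR-181a*, miR-727 and miR-129* were above background in 0 of 3 sapje-like and 3 of 3 wild type SLW samples. They lay so close to the background that no fold could be given. Their differences were -0.27 ± 0.13, 0.04 ± 0.19 and -0.02 ± 0.23 (limma adjusted p = 0.18, 0.918 and 0.967), and in sapje-like replicate 3 the fewest probes of all 6 samples were above background.

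Set beside the other dystrophin-mutant line of the same age, the 15 probes had the same sign in 15 of 15, against 119 of 167 tested probes (71.3%). The 2 comparisons share no samples, but they share the normalization, the dye term and the estimate of spread. Their dye layout was also the same, with mutants in Cy3, Cy5 and Cy3 and wild types in Cy5, Cy3 and Cy5. The signs in the 2 cohorts are therefore not fully independent. In sapje against wild type SW 2 probes passed (1.2%), miR-739 and miR-146b, with 18 at an unadjusted p under 0.05. They are 13.3% of the sapje-like calls and 100% of the sapje calls. In the limma test of a difference in effect between the cohorts 0 of 167 probes passed and 9 had an unadjusted p under 0.05. With 3 samples per group this does not show that the effects were equal. The let-7 list had medians of opposite sign, at 0.44 in sapje-like fish (0.08 without replicate 8) and -0.69 in sapje. For miR-15b, with -1.58 ± 0.27 in sapje-like and -0.78 ± 0.27 in sapje, the difference, sapje-like minus sapje, had a 95% interval of -1.62 to 0.02. For miR-145, with 1.34 ± 0.38 and 0.20 ± 0.38, the interval was 0.00 to 2.27 before correction for 167 probes. For miR-122, with 4.81 ± 1.12 and 4.38 ± 1.12, it was -2.93 to 3.79. The intervals of miR-15b and miR-122 include 0, and that of miR-145 begins just above it, while its adjusted p did not pass.

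**Figure D5:**
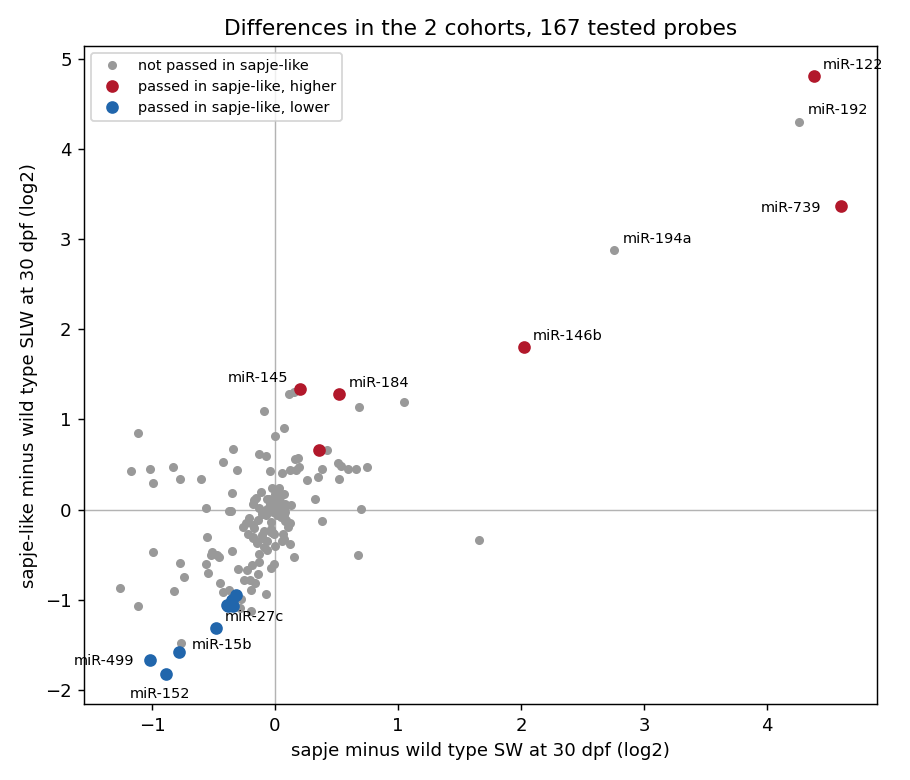
Each of the 167 tested probes by its difference in sapje-like minus wild type SLW (vertical axis, log2) and in sapje minus wild type SW (horizontal axis, log2) at 30 dpf. The 15 coloured probes that passed in sapje-like lie at the upper right or the lower left, and miR-122, miR-192, miR-739 and miR-194a have the largest differences in both cohorts.

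At 5 dpf, with 2 samples each, 3 of the 15 had the same sign in sapje-like against wild type SLW as at 30 dpf, as had 59 of 167 probes (35.3%). miR-15b stood at 0.45 ± 0.33, miR-499 at 0.59 ± 0.52, miR-122 at -0.72 ± 1.35 and miR-739 at -1.19 ± 1.11 there, with limma adjusted p-values of 0.848, 0.848, 0.927 and 0.848. miR-146b, at 1.00 ± 0.50, was one of the 3, and miR-100 and miR-199 (-0.34 ± 0.31 and -0.09 ± 0.34) were the others. The difference of the effects between the ages was tested for every probe, and 0 of 167 passed in limma, with 31 at an unadjusted p under 0.05 (18.6%). Without wild type SLW replicate 8, 9 probes passed that test.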

How the data were processed

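Small RNA of 20 whole-fish samples was measured on 2-colour arrays of a service provider, each sample in one dye, per the labels' protocols. Per the file headers the deposited scanner files give the mean intensity of each spot in one channel, before any background correction. The authors' deposited table gives 1 processed intensity per probe, whose scale and centring are unknown here. On the log2 scale it correlated with the values computed here at 0.964 to 0.981, which fixes its direction, and it served as an alternative only. Its column medians were 113, 120 and 95.3 in sapje-like replicates 1, 2 and 3, and 129, 117 and 103 in wild type SLW replicates 2, 5 and 8. The image software is not given in the sources used here.

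Spot intensities were background-corrected (normexp, offset 50), log2-transformed, averaged over the 12 spots of a probe and quantile-normalized over all mature microRNA probes. A probe was above background where its mean intensity exceeded the median of 1048 empty spots by 3 standard deviations, taken from the median absolute deviation. Those above background in 2 samples of any group were tested (167, of them 15 star strands), and 52 were left out. The empty-spot median was 349 to 466 in Cy3 and 36.2 to 40.2 in Cy5 over the 6 samples compared. The number of arrays limits the precision.

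limma 3.58.1 in R 4.3.3 fitted 20 samples in 8 groups with a term for the dye (11 residual and 2.48 prior degrees of freedom), with Benjamini-Hochberg adjustment over 167 probes and a threshold of 0.05. On simulated data with each probe's spread over all 20 samples and 167 probes, 56% of differences of 1 log2 unit and 91.8% of differences of 2 were found, with 5.98% of calls false, for sapje-like against wild type SLW at 30 dpf. The simulated noise was normal, independent between probes and equal in all groups. It held no sample that stood apart as wild type SLW replicate 8 does, so these rates may not hold for the real comparison. Shared arrays were inferred from deviations of 480 spots from their probe's mean: each of the 20 paired off with a sample of the other dye that was the best match both ways, at correlations of 0.659, 0.447 and 0.775 for the 3 arrays used here, the one at 0.447 lying close to the next best at 0.402. Neighbouring genes, within 10000 bases, come from RefSeq GRCz12tu, and sequences come from the deposited files. In RefSeq 215 probes matched by name and 4 did not (miR-739, miR-143, miR-220 and miR-430j).

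The members, the lists and the rule for named probes were chosen with earlier results of these data known. Named are all probes past the threshold, topped up by p to 20, the 15 with the smallest p without wild type SLW replicate 8, probes above background in every sample of one group and none of the other, and examples from each list. Further probes of the same seed family or gene cluster, and the full set of calls without replicate 8, were named after their values were seen. Alternatives covered normalization, background, filter, dye, samples in the fit, estimate of spread, shared array, the authors' table and leaving out each 30 dpf sample.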

Additional observations from a re-analysis of the deposited data

How the results depend on the processing

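The count of 15 for sapje-like against wild type SLW was 0 with cyclic loess, 2 with 30 dpf samples only, 1 with the 6 samples compared only, 48 with array quality weights (an estimate that stopped before it converged) and 24 with the shared array as a random block, and 0 to 34 with 1 sample left out. With the other 11 settings it was 12 to 17. The count for sapje against wild type SW was 2, and 0 with cyclic loess, 1 with 30 dpf samples only or the authors' deposited table, 11 with array quality weights, 4 with the array block and 0 to 8 with 1 sample left out. The difference between cohorts had 0 probes in every setting run, leaving out a sample included. The difference between ages had 0, and 8 with median scaling, 2 without the dye term, 2 with the array block and 0 to 9 with 1 sample left out. Close to the background, miR-727 (0.04) turned to -0.116 with the empty-spot median subtracted and -0.0754 with array weights, and ran from -0.0918 (without sapje-like replicate 3) to 0.179 (without sapje-like replicate 2) with 1 sample left out. miR-129* (-0.02) turned to 0.0156 with cyclic loess, 0.120 with median scaling and 0.0364 in the authors' table, and ran from -0.0696 (without wild type SLW replicate 8) to 0.0787 (without wild type SLW replicate 5), with 0.0325 without sapje-like replicate 2. The median of all tested probes was -0.11 with the empty-spot median subtracted and -0.12 in the authors' table, against -0.03. The causes were not tested. No paired analysis was possible because the 2 groups share 1 replicate number. This concerns replicate numbers, and pairing by the inferred array is the array block above.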

Other observations

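The arrays also carry 24 spots for 5S ribosomal RNA, which the comparisons above do not use. Their raw intensity, not corrected for dye, was 18970, 18766 and 14401 in sapje-like replicates 1, 2 and 3. It was 11445, 13136 and 16577 in wild type SLW replicates 2, 5 and 8. The groups overlapped through wild type SLW replicate 8 and sapje-like replicate 3, placed on one array by their spot patterns. After background correction, 5S minus the median probe (log2) was 3.51, 4.84 and 3.55 in sapje-like fish. It was 4.07, 3.43 and 4.66 in wild type SLW, so the groups interleaved, with the Cy5 samples above the Cy3 samples.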
